A study of Mus musculus with 75 samples.

Results

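The development and identity of B cells were followed through 9 genes, chosen by name, of the 20680 genes left after keeping 1 row per gene in the tissue table. The early genes were Vpreb1, Igll1 and Ebf1, and the mature genes were Pax5, Cd79a, Cd79b, Ms4a1, Cd22 and Blk. RNA had been sequenced from whole organs of C57BL/6 mice, without sorting cells, in 6 untreated wild-type animals: 3 aged mice of 22 months and 3 young mice of 3 months. The animals had been perfused with PBS, and bone marrow had been flushed out of the long bones of the hind leg. Analysed here were 63 libraries from 11 tissues, with 3 aged and 3 young libraries per tissue except bone marrow and cervical lymph nodes (2 young) and liver (2 aged). A further 11 choroid plexus libraries came from parabionts, C57BL/6 mice whose circulations were joined surgically: 3 young and 3 old animals paired with a partner of like age (isochronic), and 3 young and 2 old animals paired with a partner of the other age (heterochronic). The young parabionts were listed at 3 months and the old ones at 22 months.

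B cells arise in the bone marrow. Pro-B and early pre-B cells assemble the pre-B cell receptor, in which the surrogate light chain, made of the proteins of Vpreb1 and Igll1, pairs with the first heavy chain before a true light chain exists. The transcription factors of Ebf1 and Pax5 set and hold B cell identity, and the proteins of Cd79a and Cd79b carry the receptor signal inward in both young and mature B cells. Mature B cells, which carry the products of Ms4a1 (CD20) and Cd22 and the Src family kinase of Blk, collect in the spleen and lymph nodes, and a small number live in the thymus.

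The promoters of the pair of surrogate light chain genes and of a receptor chain gene are shown because these genes had opposite tissue patterns below. RefSeq promoter windows (GRCm38.p6, 250 bases before to 50 bases after the start) were found for 6 of the 9 genes. The start sites of Vpreb1 and Igll1 lay 5270 bases apart on chromosome 16. Capitals mark the inverted repeat TCCCNNNGGGA, searched on both strands and chosen after the sequences had been seen.
Vpreb1 (chr16:16869206-16869505, minus strand): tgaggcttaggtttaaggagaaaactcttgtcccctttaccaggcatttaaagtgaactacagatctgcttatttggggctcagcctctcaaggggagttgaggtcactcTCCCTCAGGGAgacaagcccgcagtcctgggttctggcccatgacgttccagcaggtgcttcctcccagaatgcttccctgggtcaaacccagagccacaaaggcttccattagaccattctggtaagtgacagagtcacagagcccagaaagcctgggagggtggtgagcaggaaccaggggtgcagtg
Igll1 (chr16:16863936-16864235, minus strand): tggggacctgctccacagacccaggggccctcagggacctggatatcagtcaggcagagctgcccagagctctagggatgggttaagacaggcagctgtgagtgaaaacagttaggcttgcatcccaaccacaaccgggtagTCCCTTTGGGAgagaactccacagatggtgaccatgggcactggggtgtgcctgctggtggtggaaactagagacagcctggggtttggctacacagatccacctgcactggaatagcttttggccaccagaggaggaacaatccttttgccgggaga
Cd79a (chr7:24897247-24897546, plus strand): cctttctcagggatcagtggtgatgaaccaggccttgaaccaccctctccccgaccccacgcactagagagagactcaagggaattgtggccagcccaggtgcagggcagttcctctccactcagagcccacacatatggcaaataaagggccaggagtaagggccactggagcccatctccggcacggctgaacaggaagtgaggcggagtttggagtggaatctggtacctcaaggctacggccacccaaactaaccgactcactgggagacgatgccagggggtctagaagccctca
The marked repeat read TCCCTCAGGGA in Vpreb1 and TCCCTTTGGGA in Igll1, and no match stood in the windows of Cd79a, Cd22, Ebf1 or Pax5. Of 32851 promoter windows of the same length, 273 (0.831%) held it. The closely related spacing TCCCNNGGGA, the core of the palindrome bound by EBF1, was matched in Cd22 alone of the 6 genes and in 0.904% of all windows. The E box CANNTG was matched in all 6 genes, for Ebf1 at 1 of its 2 starts, and in 72.3% of all windows. These matches are descriptions of letters in a window and do not show binding.

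Values are normalised signals: reads per RefSeq transcript, scaled by 1 factor per library and not divided by length, so levels are compared between libraries for 1 gene and not between genes. One read was worth 0.527 to 2.19 units, and libraries held 187827 to 1134770 reads. Young mouse 2 stood apart, several of its libraries carrying a second organ's genes: the summed signal of 5 lung genes was 35765 in its spleen library against 36.3 to 86.3 in the other 5, that of 5 colon epithelium genes was 6251 in its mesenteric lymph node library against 3.75 to 39.1, and that of 10 T cell genes was 786 in its hippocampus library against 5.9 to 11.7. In inguinal nodes of aged mouse 3, 7 fat cell genes summed to 21290 against 93.6 to 1455 in the other 5. Age results are therefore given with and without young mouse 2.

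Vpreb1 was high in bone marrow and in choroid plexus and did not exceed 3.16 in any other tissue. In bone marrow it measured 8.63, 21.1 and 14.9 in the aged mice and 28.6 and 36.3 in the young mice. In the spleen it did not exceed 0.899, the worth of 1.5 reads, and in the lymph nodes it did not exceed 2.49. The thymus lay between these, with 1.09 to 3.16 over 6 libraries.

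Igll1 was high in bone marrow alone among the 11 tissues. It measured 8.17, 22.1 and 8.0 in aged marrow and 13.2 and 22.0 in young marrow, and it was listed at 0 in 46 of the 63 libraries. All 6 spleen libraries were at 0; against a floor of 3 reads in each of them, the marrow mean of 14.7 was at least 4.88-fold higher. Outside marrow its highest value was 3.84, in a choroid plexus library.

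Ebf1, grouped with the early genes because it acts from the start of the lineage, did not follow the surrogate light chain. It measured 15.0 to 38.2 in the spleen, 12.6 to 34.2 in cervical, 29.3 to 57.1 in inguinal and 6.78 to 36.6 in mesenteric lymph nodes, against 3.66 to 21.2 in marrow. Over the 52 libraries without young mouse 2, Pearson's r of its log2 level was 0.91 with the mean of the 6 mature genes and -0.25 with the mean of Vpreb1 and Igll1, a description of libraries that share animals and tissues. Its highest value, 57.1, stood in the fat-rich inguinal library of aged mouse 3, where Cd79a (58.7), Cd79b (106), Ms4a1 (28.5), Cd22 (28.5) and Blk (13.4) were each at their lowest of the 6 inguinal libraries. Ebf1 is also known to act in fat cell precursors, and the part of those cells in its levels was not tested.

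Pax5, the factor that commits cells to the B lineage, was barely sampled. It was listed at 0 in 51 of 63 libraries, and its 12 positive values, none above 4.28, stood in spleen, lymph node, lung and hippocampus libraries. No bone marrow library had a Pax5 value above 0.

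The signalling chains had their highest mean levels in the spleen and lymph nodes. Cd79a measured 168 to 435 in the spleen (median 383), 273 to 339 in cervical, 58.7 to 411 in inguinal and 118 to 363 in mesenteric lymph nodes. In bone marrow it measured 44.5 to 135, in lung 19.1 to 63.0 and in thymus 7.43 to 122. The lowest spleen value and the highest thymus value were both young mouse 2, and without it spleen spanned 315 to 435 and thymus 7.43 to 46.0. Cd79b measured 287 to 637 in the spleen, 278 to 540 in cervical nodes and 67.8 to 158 in marrow. Colon, liver and choroid plexus held no value above 13.0 of Cd79a, and hippocampus none above 1.31 except 237 in young mouse 2.

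The surface and kinase genes of mature cells were spread likewise. Ms4a1 measured 110 to 384 in the spleen and 16.8 to 42.4 in bone marrow. Cd22, the inhibitory lectin of the B cell surface, measured 70.4 to 264 and 10.1 to 31.9 in the same sites, and its 2 rows in the table were identical. Blk measured 52.0 to 162 in the spleen, 13.4 to 96.7 over the lymph nodes and 7.64 to 44.1 in marrow. Spleen and marrow values did not overlap for Cd79a, Cd79b, Ms4a1, Cd22 or Blk. The share of all genes whose spleen and marrow values separate was not counted, so this only describes their levels.

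**Figure D1:**
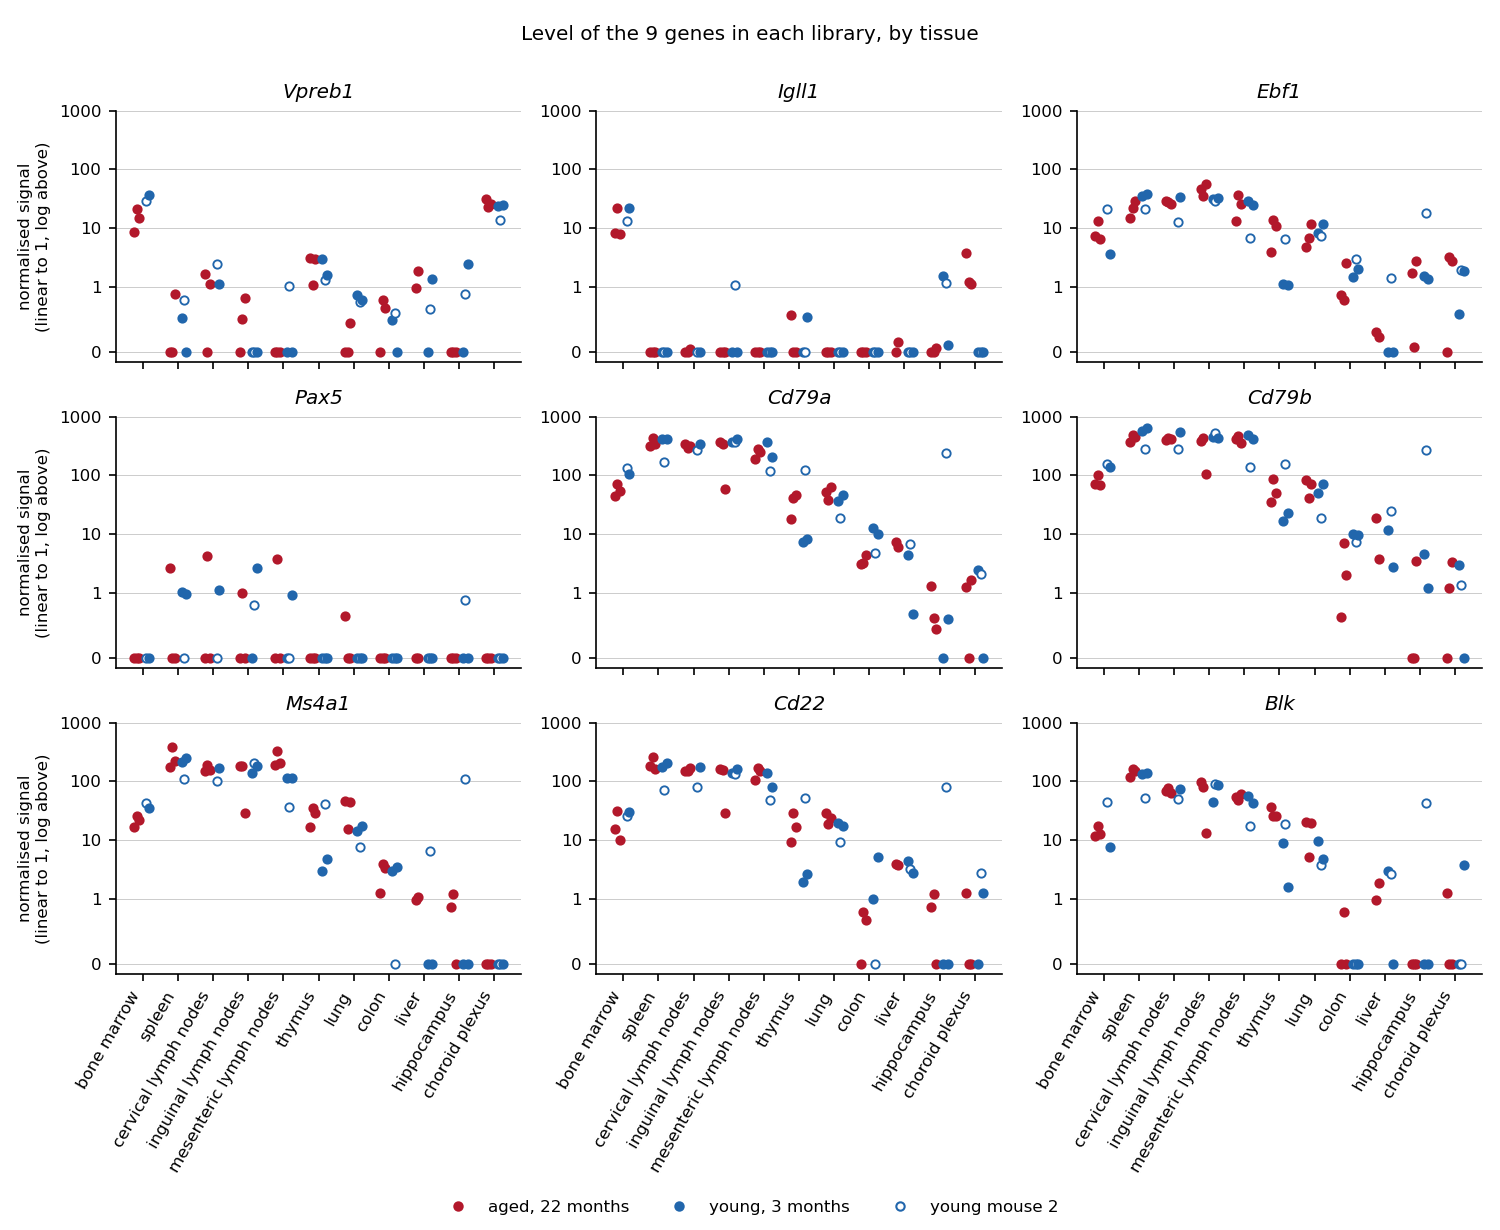
Normalised signal of each gene (vertical axis, linear up to 1 and logarithmic above) in every library of the 11 tissues; red points are aged, blue young, and open points young mouse 2. Igll1 and Vpreb1 are high in bone marrow, Vpreb1 also in choroid plexus, and the mature genes in spleen and lymph nodes, with young mouse 2 hippocampus at 237 for Cd79a.

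The first comparison set the lymphoid sites against each other, in 1 limma model on log2 values over 34 libraries of 6 sites with the mouse as a term and with Benjamini-Hochberg adjustment over 15910 genes. In whole tissue, fewer cells of a type and less RNA per cell cannot be told apart. The 9 genes split: 2 were higher in bone marrow than in spleen (10.6% of all genes tested were) and 6 were lower (14.8% of all genes). Vpreb1 was higher by 4.10 ± 0.38 (log2, SE) and Igll1 by 3.87 ± 0.32. Igll1 was at 0 and Vpreb1 at no more than 1.5 reads in every spleen library, so both entered the comparison through their marrow values alone and had to differ: these values describe their levels, are no test, and depend on the value of about 1 read added before taking logs.

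The mature genes and Ebf1 lay on the other side. The limma difference of bone marrow from spleen was -2.04 ± 0.59 for Cd79a (adjusted p = 0.0154), -2.07 ± 0.48 for Cd79b (adjusted p = 0.00277), -2.88 ± 0.53 for Ms4a1 (adjusted p = 3.5e-04), -2.86 ± 0.61 for Cd22 (adjusted p = 0.00146) and -2.77 ± 0.53 for Blk (adjusted p = 5.3e-04). Ebf1 differed by -1.40 ± 0.43 (adjusted p = 0.0159), and Pax5, at -0.71 (adjusted p = 0.255), did not pass. The median of all genes in this comparison was -0.15, and -0.02 after quantile normalization. Each of the 8 calls was also made without young mouse 2 (7.65% of all genes higher, 10.2% lower), where Blk stood at -3.55 and Ebf1 at -2.10. Those of Vpreb1 and Igll1 are again descriptions and no test.

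Against the mean of the 3 lymph node sites the same 8 genes passed in the same directions (15.0% of all genes were higher in marrow and 20.7% lower). Vpreb1 was higher by 3.98 and Igll1 by 3.82, again as a description, since both passed the filter through marrow, while Cd22 was lower by -2.40 and Cd79a by -1.70 on the log2 scale. The same 8 passed without young mouse 2 (12.1% higher, 15.0% lower). Here the median of all genes was -0.20.

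Spleen and lymph nodes were not separated by these genes. None of the 9 passed in limma (3.39% of all genes were higher in spleen and 2.28% lower), and only Blk had an unadjusted p under 0.05 (17.9% of all genes). Blk was higher in spleen by 1.09 ± 0.41 (adjusted p = 0.144). It passed without young mouse 2, at 1.21 ± 0.34 (adjusted p = 0.0371), as 1 gene of the 9 (3.45% of all genes higher, 2.58% lower); Ms4a1 and Blk then had an unadjusted p under 0.05 (18.0% of all genes).

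The thymus held less of the mature genes and slightly more Vpreb1 than the spleen. Of the 9 genes, Vpreb1 was higher by 1.22 ± 0.35 (adjusted p = 0.0124; 8.57% of all genes were higher), on 0.5 to 5.5 reads per thymus library, and 6 were lower (11.6% of all genes): Ebf1 by -2.26, Cd79a by -3.65, Cd79b by -3.26, Ms4a1 by -3.70, Cd22 by -3.76 and Blk by -2.95. With Vpreb1 at no more than 0.899 in the spleen, its difference depends on the value of about 1 read added before taking logs. It is best read as a description of low levels. The same 7 genes passed without young mouse 2 (8.71% of all genes higher, 11.3% lower), the Cd79a difference was -4.50 and that of Vpreb1 1.36 (adjusted p = 0.0135). Blk relative to Cd79a varied widely there: the ratio of their signals was 1.97, 0.632 and 0.565 in the aged thymus libraries and 1.20, 0.157 and 0.194 in the young, against 0.310 to 0.437 in the spleen, so that 4 thymus libraries lay above the spleen range and 2 below it.

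Within each library, the mean log2 level of the 3 early genes minus that of the 6 mature genes gave 1 figure for the balance; its zero has no meaning because signal is not per length, and no test was made since the genes were chosen with earlier results known. Bone marrow ranged from -0.75 to -0.21 over 5 libraries and the spleen from -5.45 to -3.94 over 6. The lymph nodes ranged from -5.12 to -3.52, apart from -2.13 in inguinal nodes of aged mouse 3. The thymus ranged from -2.81 to -2.02 in aged mice and stood at -1.33 and -1.25 in young mice 1 and 3, with -3.57 in young mouse 2. Its early mean, 1.01 to 1.86, was not above that of the spleen, 1.33 to 1.95. The thymus stood above the spleen through its lower mature mean, 2.26 to 4.95 against 5.71 to 6.97. In both sites Vpreb1 and Igll1 rest on a few reads.

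**Figure D2:**
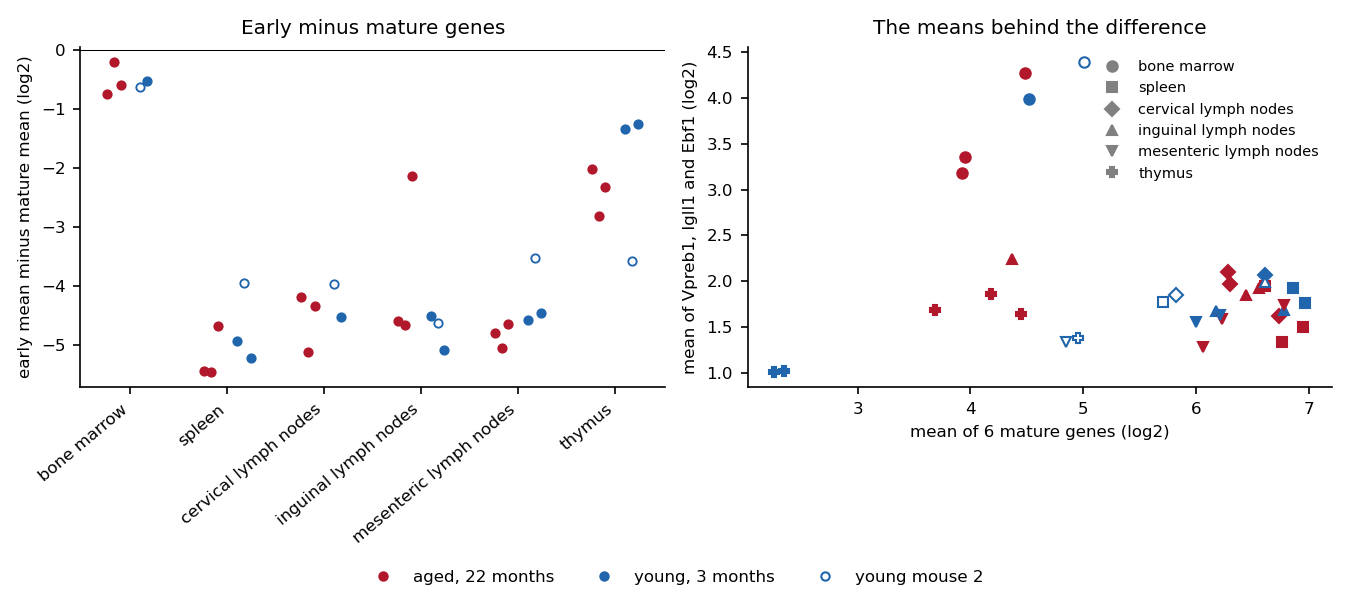
Left, the early mean minus the mature mean (log2) in each library by site; right, the early mean against the mature mean, with the site given by the marker shape. All 5 bone marrow libraries lie above every library of the other sites, and aged marrow (-0.75 to -0.21) spans young marrow (-0.62 and -0.53).

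Other genes of the lineage were taken from lists of known function. Of 12 further early B cell genes, 5 were higher in bone marrow than in spleen and 2 lower by the limma test, with a median of 0.89 (10.6% of all genes were higher and 14.8% lower). The higher ones included Dntt (3.79), which adds bases at the joints of rearranged receptor genes, Rag1 (2.81), which cuts those genes, Vpreb2 (2.68) and the progenitor factor Myb (2.86). Vpreb2 did not exceed 0.529 in the spleen, less than 1 read's worth, so its difference describes a level and is no test. The lower ones, named after their values were seen, were Il7r (-1.21), the receptor for interleukin 7, and Lef1 (-1.45), both also known from T cells. Dntt and Rag1 also serve developing T cells and were far higher in the thymus. Of 14 mature follicular genes, 13 were lower in marrow and 0 higher (median -2.62), among them Cr2 (-5.28), the complement receptor of mature B cells. Of 20 identity and receptor signalling genes, 12 were lower and 1 higher (median -1.56), with Bank1 at -2.93 and the adaptor gene Blnk at -2.02. Among the genes most like the mature mean over the 52 libraries were Fcmr (r = 0.98), Pou2af1, Fcrla, H2-DMb2, Btla, Fcrl1, Spib, Tnfrsf13c and Wdfy4 (r from 0.96 to 0.97). The genes most like the mean of Vpreb1 and Igll1 were Vpreb2 (r = 0.91) and Tmem216 (r = 0.82), followed by Ppp1r42, Cpa6, C1qtnf12, Itgb2l, Ibsp, H2bc12, Lin28a and Prdx5 (r from 0.71 to 0.80). These libraries include choroid plexus, where Vpreb1 averaged 25.9 against 20.2 in bone marrow. Likeness to this mean therefore does not mark a gene as part of the B lineage. Vpreb2 is a near copy of Vpreb1: their transcripts are 97.4% identical over 759 aligned bases, so reads may be split between them.

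The second comparison asked how the genes differed between aged and young mice in each tissue. In bone marrow, 0 of the 8 genes tested passed adjustment in limma (0.0422% of all genes were higher and 0.00843% lower), and 4 had an unadjusted p under 0.05 (6.54% of all genes). The values of those 4 were lower in all 3 aged libraries than in both young libraries, a separation seen for 9.74% of all genes. Cd79a measured 44.5, 70.9 and 53.4 in aged and 135 and 107 in young marrow (-1.10 ± 0.25, limma adjusted p = 0.192). Vpreb1, with the values given above, differed by -1.15 ± 0.37 (adjusted p = 0.556).

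Cd79b measured 72.6, 103 and 67.8 in aged and 158 and 137 in young marrow (-0.88, adjusted p = 0.452). Ms4a1 measured 16.8, 26.0 and 22.5 in aged and 42.4 and 35.3 in young marrow (-0.83, adjusted p = 0.647). Igll1 overlapped between the ages (-0.54 ± 0.44), as did Cd22 (-0.69). The 2 young marrow libraries disagreed for Blk (44.1 and 7.64) and Ebf1 (21.2 and 3.66), and both genes turned positive, at 0.80 and 1.09, when the first of each pair, young mouse 2, was left out. Leaving out young mouse 3 instead left young mouse 2 as the 1 young library. Against it the log2 difference was -1.27 for Cd79a and -1.62 for Blk, values that rest wholly on that library. With young mouse 2 left out, 0 of 8 passed in limma (0.0626% of all genes higher, 0.00783% lower), 3 had an unadjusted p under 0.05 (6.22%), and against the 1 young library left 2 genes lay wholly higher (26.6%) and 4 wholly lower (23.7%). Median log2 over the 8 genes was -0.79 in that fit, against 0.03 over all genes tested, and -0.76 against 0.04 with all libraries.

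Related genes were examined in the same marrow libraries. None of the 11 tested other early genes passed, 7 of them being below 0 (median -0.49), and none of the 20 identity genes or 13 tested follicular genes. Of 7 tested plasma cell genes, all were above 0 and Jchain, which joins secreted antibody into polymers, rose (134, 266 and 198 in aged against 76.7 and 59.2 in young; 1.5, limma adjusted p = 0.0439). The 10 neutrophil and myeloid precursor genes summed to 76170 to 94542 in aged and 70010 to 74032 in young marrow, and the part of that difference in the B cell values was not tested.

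In the thymus the result turned on young mouse 2. With all libraries, 0 of 7 tested genes passed in limma (1.00% of all genes were higher and 0.0481% lower), and Ebf1 and Blk had an unadjusted p under 0.05 (13.8% of all genes). Blk alone did not overlap, being higher in all aged libraries (11.4% of all genes). Cd79a measured 18.4, 41.6 and 46.0 in aged thymus and 7.43, 122 and 8.30 in young mice 1, 2 and 3. The library of young mouse 2 was thus the highest of the 6, and it also had the fewest thymocyte transcripts: 7 thymocyte genes summed to 1260 there, 1490 to 2099 in aged mice and 2518 and 2688 in the other young mice.

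Without young mouse 2, 5 of the 7 tested genes rose in aged thymus (1.87% of all genes did, and 0.191% fell), 6 had an unadjusted p under 0.05 (13.4%) and 6 did not overlap (17.2%). Cd79a differed by 1.94 ± 0.38 (limma adjusted p = 0.00792), and Cd79b by 1.42 ± 0.33 (adjusted p = 0.0286). Ms4a1 measured 16.6, 35.0 and 29.0 in aged and 2.97 and 4.82 in young thymus (2.48 ± 0.42, limma adjusted p = 0.00194). Cd22 measured 9.18, 28.5 and 17.0 in aged and 1.98 and 2.68 in young (2.41 ± 0.50, limma adjusted p = 0.0111). Blk measured 36.2, 26.3 and 26.0 in aged and 8.91 and 1.61 in young (2.57 ± 0.47, limma adjusted p = 0.00513). Ebf1, at 2.20 ± 0.61 (limma adjusted p = 0.0686), did not pass, although its values did not overlap: 4.02, 13.7 and 11.0 in aged and 1.11 and 1.07 in young. One read was worth 0.533 to 2.19 in thymus libraries, so the young values of Ebf1 and Cd22 rest on a few reads. The lack of overlap of Ebf1 therefore only describes its levels. Vpreb1 differed by 0.02.

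The number of calls fell when a further young mouse was left out, for these genes and for all genes. Leaving out aged mouse 1, 2 or 3 as well gave 6, 5 and 5 called genes (1.73%, 3.09% and 1.60% of all genes were higher). Leaving out young mouse 1 as well gave 1, Blk (0.158% of all genes), and leaving out young mouse 3 gave 1, Ms4a1 (0.934% of all genes). Over these 5 fits the log2 difference was 1.72 to 2.34 for Cd79a, 1.08 to 1.71 for Cd79b, 2.24 to 2.78 for Ms4a1, 2.11 to 2.80 for Cd22 and 1.60 to 3.64 for Blk. Fat cell genes moved with the B cell genes: 6 of 7 rose without young mouse 2, a fit in which 1.87% of all genes rose and 0.191% fell. The fat cell sum was 1051 to 2975 in aged thymus, 295 and 329 in young mice 1 and 3 and 1422 in young mouse 2. None of these genes was at 0 in any aged library. Of 7 thymocyte genes, 2 fell (Dntt by 0.95 and Themis by 1.05 on the log2 scale) and 0 rose. The part of either in the B cell difference was not tested. Among other B lineage lists, 3 of 20 identity genes rose (Pou2af1 2.60, Pou2f2 2.00 and Cd72 1.68), as did 1 of 14 follicular genes (Tnfrsf13c, 2.27) and 2 of 8 plasma cell genes (Mzb1 2.46 and Jchain 1.53).

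The peripheral sites gave no passing difference. In the spleen 0 of 6 tested genes passed in limma (0.122% of all genes were higher and 0.0244% lower) and 0 had an unadjusted p under 0.05 (9.24% of all genes). Without young mouse 2, Ebf1 measured 15.0, 21.8 and 29.4 in aged and 35.3 and 38.2 in young spleen (-0.76, adjusted p = 0.465), and Cd79b 370, 491 and 455 against 568 and 637 (-0.46, adjusted p = 0.404); neither overlapped, as for 12.8% of all genes. Both had an unadjusted p under 0.05 there (10.1% of all genes), and 0 of 6 passed (0.412% higher, 0.0950% lower). In cervical lymph nodes 0 of 6 passed (0.0241% of all genes higher, 0.00803% lower) and 0 had an unadjusted p under 0.05 (7.54%). Against the 1 young library left without young mouse 2, 0 of 7 passed in limma (0.257% higher, 0.0453% lower), 0 had an unadjusted p under 0.05 (7.04%), and Ebf1, Cd79b and Cd22 were lower in every aged library (25.7%). In inguinal lymph nodes 0 of 6 passed (0% of all genes in either direction), again with none at an unadjusted p under 0.05 (4.65%); Ebf1 was higher (6.33%) and Cd79b lower (6.36%) in every aged library. The limma count without young mouse 2 was again 0 of 6 (0% in either direction), with 0 at an unadjusted p under 0.05 (2.37%) and the same 2 genes not overlapping (10.4% higher, 9.94% lower).

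Ms4a1 stood out by level in mesenteric lymph nodes. It measured 193, 333 and 209 in aged and 114, 36.4 and 115 in young mice, so that every aged library was above every young one, as for 8.76% of all genes. The limma difference was 1.59 ± 0.43 (adjusted p = 0.349) and 1.04 ± 0.27 without young mouse 2 (adjusted p = 0.231); 0 of 6 genes passed (0.0324% of all genes higher, 0% lower), and 2 of 6, Ms4a1 and Cd22, had an unadjusted p under 0.05 (8.61%). Without young mouse 2, 0 of 6 passed in limma (0.0792% higher, 0.00792% lower), Ms4a1 had an unadjusted p under 0.05 (7.37%), and it again did not overlap (12.9%). Relative to Cd79a of the same library, Ms4a1 was 1.03, 1.19 and 0.848 in aged and 0.315, 0.308 and 0.567 in young nodes, again without overlap. In aged spleen the same ratio was 0.555, 0.882 and 0.651 against 0.512, 0.654 and 0.587 in young, which overlapped, as it did in cervical and inguinal lymph nodes. The ratio also did not overlap in bone marrow (0.378, 0.367 and 0.421 in aged, 0.315 and 0.332 in young) and in thymus (0.906, 0.842 and 0.630 in aged, 0.400, 0.341 and 0.581 in young), higher with age in each. Such separation was not particular to Ms4a1. Blk relative to Cd79a was 0.382, 0.373 and 0.437 in aged and 0.311, 0.31 and 0.337 in young spleen, and overlapped in the other lymphoid sites. The share of all genes whose ratio to Cd79a separates by age was not counted. These ratios were chosen after the values were seen and were not tested.

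**Figure D3:**
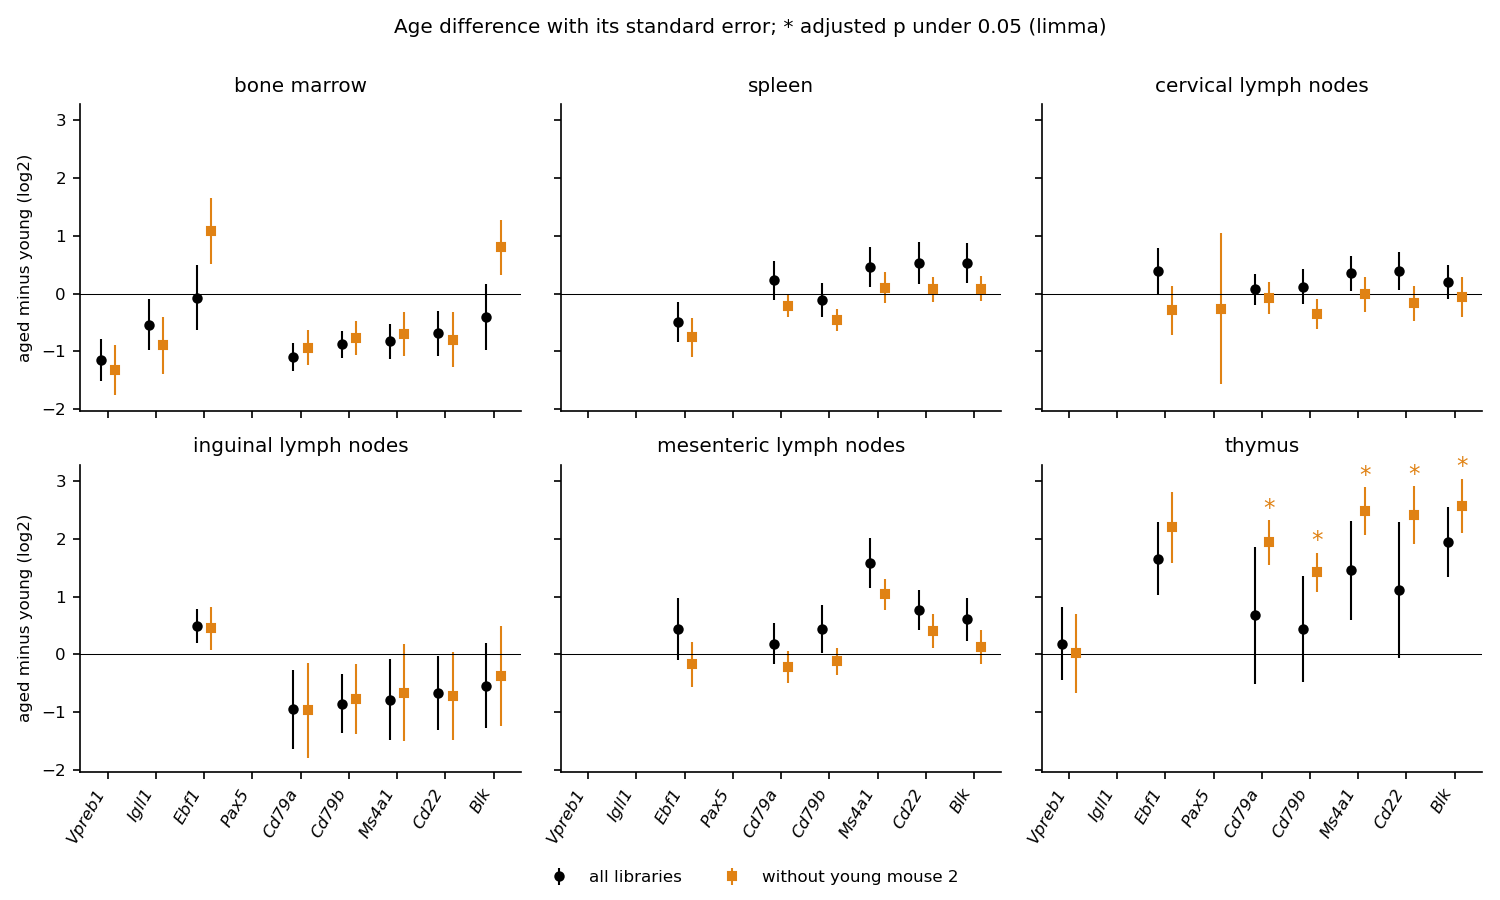
Aged minus young log2 difference with its standard error for each gene tested in the 6 lymphoid sites, with all libraries (black circles) and without young mouse 2 (orange squares); stars mark an adjusted p under 0.05. Only the thymus without young mouse 2 carries stars, on Cd79a, Cd79b, Ms4a1, Cd22 and Blk.

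Outside the lymphoid organs, lung carried these genes at levels near those of bone marrow for some, and colon and liver carried little. Without young mouse 2, lung averaged 27.9 for Ms4a1 and 8.66 for Ebf1, against 25.1 and 7.69 in marrow. In the lung 0 of 6 tested genes passed in limma (0.00755% of all genes higher, 0% lower); Ms4a1, the 1 gene with an unadjusted p under 0.05 (10.1%), measured 46.6, 15.6 and 45.3 in aged and 14.1, 7.65 and 17.8 in young (1.31, adjusted p = 0.384). In the colon 0 of 4 passed (0.102% higher, 0.0157% lower), and Cd79a was lower in each aged library (3.18, 3.20 and 4.42 against 13.0, 4.89 and 9.99; -1.11, adjusted p = 0.377), as was Cd79b (-1.59, adjusted p = 0.292); 6.57% of all genes separated that way. Both had an unadjusted p under 0.05 (11.0%). In the liver 0 of 4 passed (0.00837% in each direction) with none at an unadjusted p under 0.05 (4.22%), and in hippocampus 0 of 1, Cd79b (0% in either direction) (3.37% of all genes), with none at an unadjusted p under 0.05. None of these tissues had a passing gene in limma without young mouse 2. The lung had 0 of 6 (0.220% higher, 0.0734% lower), with Ms4a1 at an unadjusted p under 0.05 (11.6%). The colon had 0 of 4 (0.0297% higher, 0.0223% lower), with Cd79a and Cd79b at an unadjusted p under 0.05 (9.33%) and lower in every aged library (11.4%). The liver had 0 of 3 (0.188% higher, 0.393% lower) and 0 at an unadjusted p under 0.05 (7.71%), with Cd79a higher in both aged libraries (17.8%). The hippocampus had 0 of 1 (0.0704% higher, 0% lower) and 0 at an unadjusted p under 0.05 (6.45%).

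Age differences were also compared between sites in the model of 6 sites. For bone marrow minus spleen and for bone marrow minus lymph nodes, 0 of the 9 genes passed in limma (0% of all genes in either direction), and 0 had an unadjusted p under 0.05 (4.92% and 3.80% of all genes). For bone marrow minus thymus, a contrast added after the data were seen, 0 of 9 passed (0% higher, 0.0126% lower), and Blk had an unadjusted p under 0.05 (4.34%). Without young mouse 2, 0 of 9 passed in limma in any of these (0% of all genes, except 0.0123% lower for bone marrow minus thymus). Ebf1 then had an unadjusted p under 0.05 in bone marrow minus spleen (2.93%), none did in bone marrow minus lymph nodes (2.83%), and Cd79a, Cd79b, Ms4a1 and Cd22 did in bone marrow minus thymus (4.47%), where the smallest adjusted p, for Ms4a1 (-3.02) and Cd22 (-3.18), was 0.533. The opposite signs in marrow and thymus were therefore not shown to differ at the adjusted threshold.

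Choroid plexus, the tissue that makes cerebrospinal fluid, held Vpreb1 with little of the mature genes. Vpreb1 measured 32.0, 22.6 and 26.3 in aged and 23.5, 13.8 and 25.1 in young mice, within the range of bone marrow. In the same libraries Cd79a did not exceed 2.50, Cd79b 3.36, Cd22 2.76, Blk 3.76 and Ebf1 3.26, Ms4a1 was listed at 0 in all 6, and Igll1 measured 3.84, 1.22 and 1.12 in aged mice and 0 in all 3 young mice. One read was worth 0.998 to 1.38 in these libraries, so the Igll1 values rest on a few reads. Igll1 did not pass the filter and was not tested by age. By age Vpreb1 differed by 0.39 ± 0.30 (limma adjusted p = 0.910); it was the 1 gene tested, with 0 called (0.262% of all genes higher, 0.0361% lower) and none at an unadjusted p under 0.05 (6.26%). Without young mouse 2, 0 of 3 tested genes passed in limma (0.231% higher, 0.0171% lower) and 0 had an unadjusted p under 0.05 (5.16%).

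The parabiont libraries, from other animals and another RNA kit and in a table normalised separately, held Vpreb1 too. It measured 60.2 to 88.9 (median 71.7) in all 11, with Cd79a at 0 to 1.24, Cd79b at 0 to 2.35, Cd22 at 0 to 2.96 and Igll1 at 0 to 9.97. Ebf1 was present in all 11 parabionts as well, at 8.12 to 20.4 (median 13.6). Vpreb2 measured 1.38 to 7.04 in the 6 tissue libraries and 5.03 to 11.3 in the 11 parabionts. The neighbouring gene Top3b, a DNA topoisomerase read from the opposite strand, was also high there: it measured 97.8 to 145 in choroid plexus and 122 to 157 in parabionts, against 29.4 to 43.0 in bone marrow. In the GENCODE M21 annotation of GRCm38 (chromosome 16) the genes overlap by 108 bases, Vpreb1 lying at 16868403 to 16870843 on the minus strand and Top3b at 16870736 to 16892990 on the plus strand, whereas the RefSeq start of Vpreb1 lies 1481 bases from Top3b. The sources used here do not state that counting used the strand, so the share of the choroid plexus Vpreb1 signal that comes from Top3b or its surroundings was not tested.

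**Figure D4:**
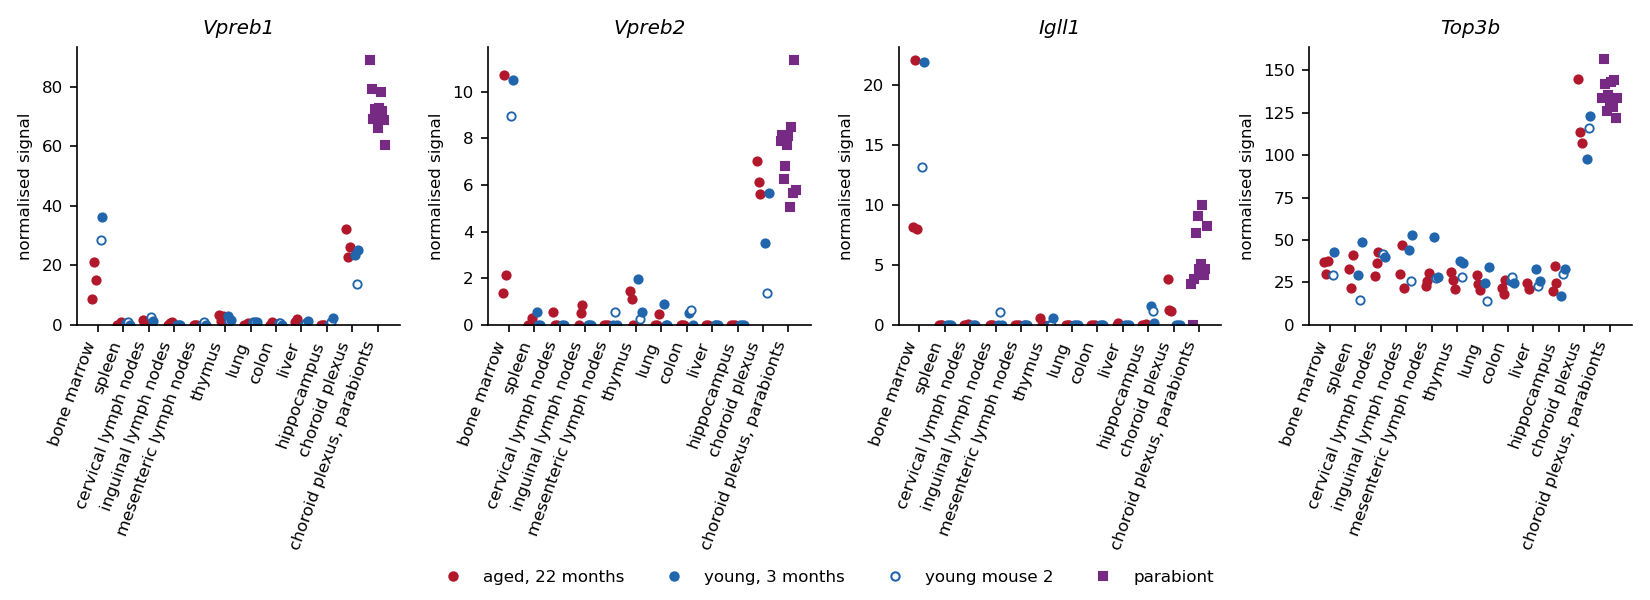
Normalised signal (linear axis from 0, a scale of its own per gene) of Vpreb1, Vpreb2, Igll1 and Top3b in the libraries of each tissue and in the 11 parabionts, whose table was normalised separately. Vpreb1 is high in bone marrow and choroid plexus, Igll1 in bone marrow, and Top3b is 97.8 or higher in every choroid plexus library.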

How the data were processed

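RNA was measured by sequencing in 63 tissue libraries and 11 parabiont choroid plexus libraries of mice. The deposited tables hold normalised signal per RefSeq transcript; alignment with TopHat to mm9 is given in the submitters' processing notes, and the sources used here name neither counter nor scaling. From 78.0% to 85.6% of positive values per library were whole multiples (tolerance 0.001) of the value of 1 read, too few to recover counts. One column that matches no listed sample (1 in number) and the young mouse 1 sample of bone marrow were not analysed here. The highest-mean row was kept per gene.

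Values were tested with limma 3.58.1 (R 4.3.3; trend and robust) on log2(value + the median value of 1 read), so log2 differences of low genes are understated. Testing required more than 2 reads' worth in a number of libraries no less than the size of the smaller group; a member that passed through its high group alone had to differ. Adjusted p-values (Benjamini-Hochberg) cover all genes tested; 0.05 was the threshold. Tissue contrasts used a mouse term. With 1 young library left in bone marrow and cervical lymph nodes without young mouse 2, that library was assumed to vary like the others. Same-numbered aged and young mice are different animals. The fits were tested on simulated data. Other settings tried were a smaller pseudocount, quantile normalization, no filter, limma without the trend, a replicate block and each library left out.

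The 9 genes and all lists were chosen with earlier results of these data known. Besides the 9, up to 4 genes per list with the smallest p and the 10 most alike genes were named, except 1 gene that is not reported here; Vpreb2, Igll1's floor of 3 reads, Top3b and the ratios to Cd79a were chosen after values were seen. Promoters came from RefSeq (GRCm38.p6) and transcript identity from a Biopython 1.88 local alignment of GENCODE M21 transcripts. Values after ± are limma standard errors, which come from the spread between libraries. The floor of 3 reads covers counting error only.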

Additional observations from a re-analysis of the deposited data

Results flagged for a closer look

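Ms4a1 was higher in every aged library than in every young library of mesenteric lymph nodes and lower in every aged library than in every young library of bone marrow. In the nodes 8.76% of all genes separated that way, and in marrow 9.74%. The gene was found by searching these same values for opposite separations, so this is a description. The log2 age differences were 1.59 and -0.83, which are 2.42 apart. The difference between these sites was not tested; for bone marrow minus the mean of the 3 lymph node sites it was -1.14 ± 0.89 (limma adjusted p = 0.998).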

How the results depend on the processing

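Depth limits the low genes: Pax5, and Vpreb1 and Igll1 outside bone marrow and choroid plexus, rest on a few reads. Leaving out 1 library at a time, 0 to 2 genes passed in bone marrow and 0 to 5 in thymus; the upper ends were reached without young mouse 3 and without young mouse 2. Over the same fits the age difference changed sign for Ebf1 (-1.22 to 1.09) and Blk (-1.62 to 0.80) in bone marrow and for Cd79b in spleen (-0.46 to 0.11) and thymus (-0.16 to 1.42). Leaving out young mouse 2 and a further mouse of the thymus, chosen after seeing the data, gave 6, 5 and 5 passing genes without an aged mouse and 1 and 1 without a young one. Vpreb1 in thymus, at 0.19 with all libraries, stood at -0.15, -0.14 and -0.28 in 3 of those fits and at -0.07 after quantile normalization. Spleen against lymph nodes had 1 passing gene without young mouse 2. The early minus mature difference of bone marrow from spleen, 4.40, became 6.18 without Ebf1, 5.02 with Ms4a1, Cd22 and Blk as the mature genes, 3.13 as a ratio of sums and 7.18 with a smaller pseudocount; that from lymph nodes, 3.86, became 5.63 without Ebf1, 2.62 as a ratio of sums and 6.52 with the smaller pseudocount. The cause of these shifts was not tested.

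Same-numbered aged and young mice are different animals, and their deviations did not pair them (r from 0.01 to 0.06 in thymus). With the mouse number as a replicate block, 1 gene passed in thymus (Blk, 1.95, limma adjusted p = 0.0374; 1.54% of all genes were higher and 0.168% lower in that fit), and Ebf1 in bone marrow stood at 0.02.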
